A study of Homo sapiens with 8 samples.

Results

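The 36 genes described here encode aminoacyl-tRNA synthetases, and they were taken by symbol from a table of 13471 human genes. All 36 had a row. The class was read from the symbol: 16 names ending in ARS2 were taken as mitochondrial enzymes and the other 20 as cytosolic ones. GARS and KARS, counted here as cytosolic, each serve both compartments from a single gene. RNA was measured by sequencing in hTERT-RPE1, an established human line from retinal pigment epithelium that was made immortal with telomerase. Interphase cells had been kept for 24 h in 2 mM thymidine, which blocks DNA synthesis. Mitotic cells had received the same thymidine block, then 6 h of release, then STLC, an inhibitor of the spindle motor Eg5, overnight. From each phase there were 2 libraries of RNA immunoprecipitated (IP) with an antibody to hnRNP U and 2 libraries made with no antibody. The headers of the deposited ratios call the RNA of the latter total RNA. The 8 libraries formed 4 groups. All groups were of this 1 line and all had been treated with thymidine, and mitosis, the release and STLC came together in the same libraries and cannot be told apart.

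Each aminoacyl-tRNA synthetase joins an amino acid to its tRNAs, and the charged tRNAs then feed the ribosome. Cytosolic and mitochondrial protein synthesis mostly use separate enzymes, all encoded in the nucleus, and in animals several cytosolic enzymes are held with the scaffold proteins AIMP1, AIMP2 and EEF1E1 in a multisynthetase complex. Many cytosolic synthetase genes are targets of ATF4, the transcription factor of the amino acid response, which binds with C/EBP partners to a composite element in promoters. hnRNP U, also named SAF-A, is an abundant nuclear protein that binds RNA and chromatin and is known to leave chromosomes in mitosis. What was measured here is the mRNA of the synthetase genes that came down with it.

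Promoter sequences (RefSeq, build GRCh38.p14, 250 bases before to 50 bases after a transcript start) were found for 30 of the 36 genes, in 39 windows. They are shown because ATF4 targets are followed below. The letters TGATGNAA, which match the core of the composite ATF4 element, were searched on both strands. They occurred in 8 of the 30 genes, in 7 of 16 cytosolic and 1 of 14 mitochondrial ones, and in 20.51% of the genes' 39 windows against 3.62% of 35116 windows of all genes. The form TGATGCAA, which is contained in the first search, occurred in 6 genes, all cytosolic, or 15.38% of their windows against 0.87%. A match describes letters in a window and is not a shown binding site. The 8 stretches of 30 bases follow, each 5′ to 3′ on the strand of its gene, with the matched letters or their reverse complement in capitals.
AARS: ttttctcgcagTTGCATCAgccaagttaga
CARS: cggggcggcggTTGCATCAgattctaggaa
GARS: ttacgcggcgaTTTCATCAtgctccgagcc
IARS: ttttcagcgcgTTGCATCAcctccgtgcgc
MARS: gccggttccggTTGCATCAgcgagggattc
NARS: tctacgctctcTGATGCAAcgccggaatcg
TARS: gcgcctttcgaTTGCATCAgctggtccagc
YARS2: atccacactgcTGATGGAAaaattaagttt
Their positions are chr16:70289675-70289704 (AARS, minus strand), chr11:3057407-3057436 (CARS, minus), chr7:30594834-30594863 (GARS, plus), chr9:92293692-92293721 (IARS, minus), chr12:57488053-57488082 (MARS, plus), chr18:57621804-57621833 (NARS, minus), chr5:33440956-33440985 (TARS, plus) and chr12:32756076-32756105 (YARS2, minus). GARS and YARS2 hold only the looser form. HARS and HARS2, the cytosolic and the mitochondrial histidine enzyme, are neighbours on opposite strands, and their RefSeq starts are separated by 84 bases with a GC content of 59.5%.

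Values are FPKM, fragments scaled by transcript length and by the size of the library, as the authors deposited them. Differences are log2 fold changes of FPKM + 1, so changes of genes near 1 FPKM are understated. A call is an adjusted p below 0.05 from limma fitted to all 13471 genes and 8 libraries. Replicates correlated across all genes at Pearson's r of 0.989 to 0.995, and the labels do not say that they came from separate cultures, so the p-values measure the spread between these libraries, which may be technical. The total depth is unknown, and steps in the low values put relative depth between 0.637 and 1.188 of the first interphase library without IP. The 10 highest genes took 58.4% to 63.0% of the FPKM sum without IP and 12.4% to 20.6% in the IP, while the median gene stayed between 5.96 and 7.13 FPKM in all libraries. The mitotic genes CCNB1 and PLK1 were higher in mitosis than in interphase without IP (log2 fold changes of 1.18 and 1.72) and the histone gene HIST1H3C was lower (fell by 7.28), as the labels state the phases. Of the pigment epithelium markers, MITF (7.05 to 9.60 FPKM without IP) and OTX2 (3.33 to 8.71 FPKM) were present and PMEL was at most 0.144 FPKM. The other listed markers, RPE65, BEST1, RLBP1, TYR and TYRP1, had no row among the 13471 genes. No control-antibody IP was analysed here, so RNA held by beads and RNA bound by hnRNP U cannot be told apart. Of the 36 genes, 8 share their interval in the file with another gene: DARS with DARS-AS1, HARS and HARS2 with each other, IARS with MIR3651, MARS with DDIT3, YARS with S100PBP, SARS2 with MRPS12 and WARS2 with LOC101929147. Whether strand was used in counting is not given in the sources used here, so reads of overlapping genes may have been exchanged. A further uncertainty touches 11 genes that have pseudogenes named after them in GENCODE, AARS, CARS, FARSB, GARS, KARS, NARS, RARS, WARS, IARS2, TARS2 and WARS2.

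Without IP, cytosolic synthetase mRNAs were more abundant than their mitochondrial counterparts, with 1 clear exception. In interphase the cytosolic genes ran from VARS, the valine enzyme, at 8.58 and 9.48 FPKM to SARS, the serine enzyme, at 66.8 and 58.4 FPKM, with medians over the 20 genes of 34.1 and 33.4 FPKM in the 2 libraries. Below SARS the order was TARS (57.1 and 49.9 FPKM), GARS (54.7 and 49.5 FPKM) and KARS (48.1 and 52.8 FPKM). The replicates of TARS overlapped those of GARS, and those of GARS overlapped those of KARS. The 16 mitochondrial genes had medians of 6.31 and 5.39 FPKM and ran from MARS2, the methionine enzyme, at 1.81 and 1.47 FPKM to CARS2, the cysteine enzyme, at 43.8 and 40.6 FPKM. CARS2 and IARS2 (29.8 and 36.8 FPKM) stood above the other mitochondrial genes, of which the next, RARS2, was at 17.8 and 20.3 FPKM. MARS2, PARS2 and AARS2 were the only members below 3 FPKM in both interphase libraries without IP. In mitosis without IP the highest cytosolic genes were IARS (79.9 and 84.9 FPKM) and KARS (72.6 and 83.01 FPKM), and the lowest was CARS (8.43 and 7.87 FPKM). The sum over all 36 genes was 815 and 771 FPKM in interphase and 871 and 913 FPKM in mitosis, of which the mitochondrial class held 164.5 to 172 FPKM.

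**Figure D1:**
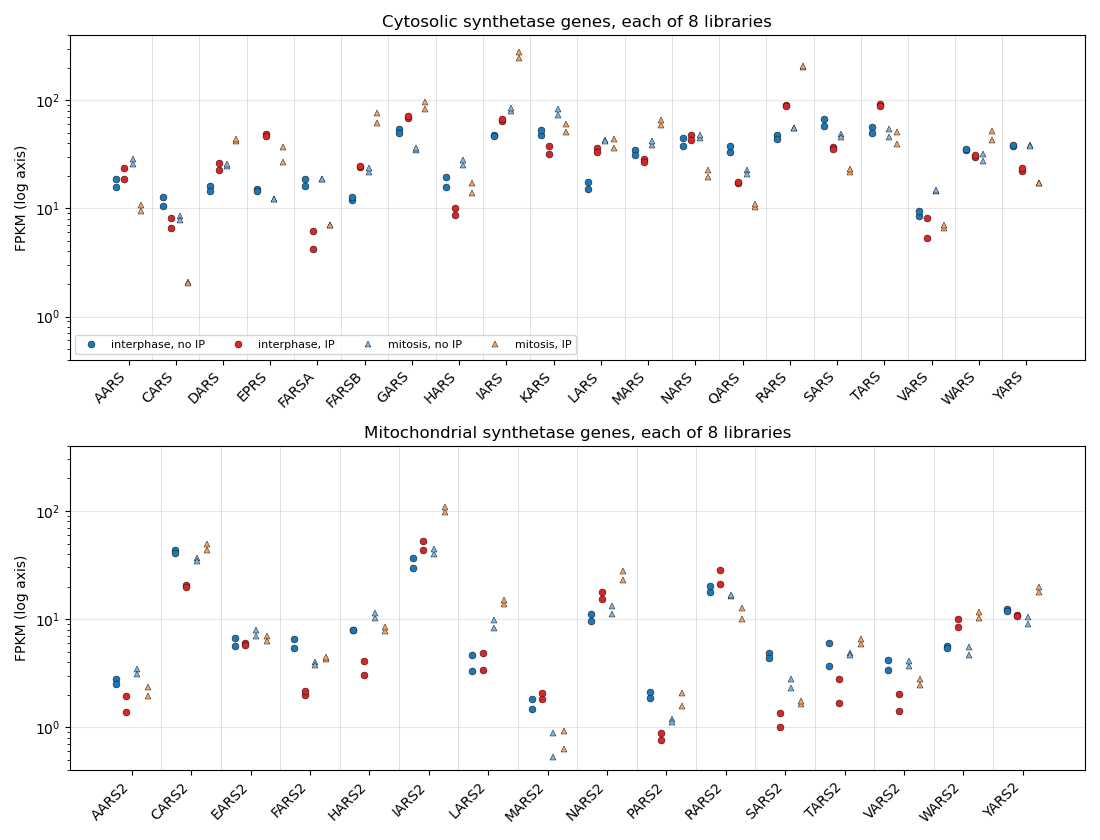
FPKM of the 20 cytosolic (top) and 16 mitochondrial (bottom) synthetase genes on a log axis, with 1 point for each of the 8 libraries; circles are interphase and triangles mitosis, and each gene's points run from interphase without IP to mitotic IP. Most mitochondrial genes lie below their cytosolic partners, and CARS2 lies above CARS in all 8 libraries.

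Genes were set against each other by amino acid in 17 pairs, with FARS2 set against both FARSA and FARSB, and EPRS against both EARS2 and PARS2. The cytosolic gene was the higher one in all 8 libraries in 14 of the 17 pairs. In these 14 pairs the median ratio over libraries ran from 1.77 for IARS over IARS2 to 32.6 for MARS over MARS2. CARS was below CARS2 in every library, at a ratio between 0.042 and 0.39, so for cysteine the mitochondrial enzyme had the more abundant mRNA. NARS exceeded NARS2 and YARS exceeded YARS2 in 6 libraries each, and in both pairs the mitochondrial gene was the higher one in the 2 libraries of the mitotic IP. EPRS, a fused enzyme for glutamate and proline, exceeded EARS2 at ratios of 1.53 to 8.20 and PARS2 at ratios of 6.87 to 65.0.

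In interphase the hnRNP U IP held more of some synthetase mRNAs and less of others, in near balance among cytosolic genes and with more decreases among mitochondrial ones. Of the 36 genes, 11 were called higher and 15 lower in the IP, against 74.6% of all genes called (37.6% higher and 37.0% lower). The cytosolic class had 8 higher and 7 lower of 20, with a median log2 fold change of -0.03. The mitochondrial class had 3 higher and 8 lower of 16, with a median of -0.32, while the median of all genes was 0.02. The class medians differed by 0.28, cytosolic minus mitochondrial, and by 0.30 and 0.35 in the 2 same-numbered pairs of libraries.

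The largest cytosolic increase was that of EPRS. It was at 15.1 and 14.6 FPKM without IP and at 49.4 and 46.6 FPKM in the IP, so the groups did not overlap. Its log2 fold change was 1.63 (SE 0.14, limma adjusted p 7.25e-06). LARS, the leucine enzyme and a sensor of leucine for mTORC1, had 17.4 and 15.0 FPKM without IP and 36.2 and 33.5 FPKM in the IP, a log2 fold change of 1.06 (SE 0.12, adjusted p 4.42e-05). Both are subunits of the multisynthetase complex. In the other direction, FARSA, the catalytic alpha subunit of the phenylalanine enzyme, had 18.9 and 16.2 FPKM without IP and 6.18 and 4.25 FPKM in the IP, a log2 fold change of -1.59 (SE 0.15, adjusted p 1.53e-05). FARSB, which encodes the beta subunit of the same tetramer, moved oppositely, from 12.1 and 12.7 to 24.4 and 24.8 FPKM, with a log2 fold change of 0.94 (SE 0.12, adjusted p 7.84e-05). QARS, the glutamine enzyme, was at 33.6 and 37.7 FPKM without IP and 17.3 and 17.6 FPKM in the IP (-0.99, SE 0.10, adjusted p 2.24e-05). The remaining called cytosolic genes were RARS, TARS, DARS, IARS and GARS (higher by 0.43 to 0.96) and HARS, SARS, YARS, CARS and KARS (between -0.85 and -0.52).

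Among mitochondrial genes, SARS2, the serine enzyme, fell most, from 4.87 and 4.37 FPKM without IP to 1.34 and 0.993 FPKM in the IP, a log2 fold change of -1.38 (SE 0.13, limma adjusted p 1.38e-05). FARS2, the single-subunit mitochondrial phenylalanine enzyme, fell from 6.59 and 5.399 to 1.998 and 2.14 FPKM (-1.18, SE 0.13, adjusted p 2.79e-05). The replicate values of these genes did not overlap between the groups. WARS2, the tryptophan enzyme, rose from 5.64 and 5.38 to 8.44 and 10.01 FPKM (0.65, SE 0.13, adjusted p 0.00169), and NARS2, the asparagine enzyme, rose from 11.2 and 9.65 to 15.3 and 17.9 FPKM (0.63, SE 0.14, adjusted p 0.00285). IARS2 was the third mitochondrial gene called higher (0.52), and CARS2, HARS2, TARS2, VARS2, PARS2 and AARS2 completed those called lower.

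For 3 amino acids the cytosolic and the mitochondrial gene were called in opposite directions in interphase. One is phenylalanine, where FARSB rose while FARS2 fell with FARSA. For threonine, TARS went from 57.1 and 49.9 to 93.4 and 88.4 FPKM (0.76, SE 0.15, limma adjusted p 0.0013) and TARS2 from 6.02 and 3.68 to 2.77 and 1.66 FPKM (-0.85, SE 0.22, adjusted p 0.00595). The lower TARS2 library without IP (3.68 FPKM) was within 1 FPKM of the higher IP library (2.77 FPKM). For proline, EPRS rose and PARS2 fell from 1.85 and 2.12 to 0.759 and 0.875 FPKM (-0.72, SE 0.12, adjusted p 0.000427). Pairs of other genes were not examined for such opposite calls, in this or the other comparisons. In interphase 37.6% of all genes were called higher and 37.0% lower.

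These interphase calls depend on how GC content and length are treated. With trends on transcript length and GC content removed from each library, 12 genes were higher and 6 lower, 12 of the 26 calls kept their sign and their call, and the class medians were 0.23 (cytosolic) and 0.16 (mitochondrial), so that both were above 0. Of the genes given in full, LARS (0.29), FARSA (-0.12), QARS (-0.17), TARS (0.23), TARS2 (-0.05), WARS2 (0.30), SARS2 (0.13) and PARS2 (0.19) lost their calls, and SARS2 and PARS2 changed sign. Threonine and proline were then without opposite calls. IARS (-0.12), SARS (0.13) and YARS (0.06) changed sign and lost their calls too, and AARS2 changed from a lower to a higher call (0.41, adjusted p 0.015). Median centring, which raised the median of all genes by 0.12, gave the cytosolic class a median of 0.09 and the mitochondrial class -0.19. The calls of AARS2, IARS2 and TARS2 were lost without replicate 2 of the interphase IP (adjusted p 0.0882, 0.0677 and 0.0518) and without replicate 1 of interphase without IP (0.0717, 0.0826 and 0.0513), and that of GARS without replicate 2 of interphase without IP (0.0556).

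In mitosis the cytosolic genes spread widely in both directions in the IP, and the mitochondrial genes lay more often above than below the samples without IP. Of the 36 genes, 15 were called higher and 15 lower, against 64.5% of all genes called (32.8% higher and 31.7% lower). The cytosolic class had 8 higher and 10 lower, with a median of -0.31, and the mitochondrial class had 7 higher and 5 lower, with a median of 0.22. The median of all genes was 0.01. Cytosolic minus mitochondrial, the medians differed by -0.53, and by -0.51 and -0.56 in the pairs of libraries, so the order of the classes was the reverse of that in interphase.

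RARS, the arginine enzyme, and IARS, the isoleucine enzyme, both subunits of the multisynthetase complex, had the largest increases. RARS was at 55.3 and 55.7 FPKM without IP and 204 and 207 FPKM in the IP, a log2 fold change of 1.87 (SE 0.10, limma adjusted p 6.4e-06). For IARS the values were 79.9 and 84.9 FPKM without IP and 246 and 281 FPKM in the IP (1.66, SE 0.11, adjusted p 8.48e-06). These were the highest values of any synthetase gene in any library. CARS, the cytosolic cysteine enzyme, fell from 8.43 and 7.87 to 2.07 and 2.04 FPKM (-1.58, SE 0.13, adjusted p 1.88e-05), its lowest level in the 4 groups. AARS, the alanine enzyme, fell from 25.97 and 28.5 to 9.55 and 10.8 FPKM (-1.33, SE 0.14, adjusted p 4.72e-05), although the mitotic libraries without IP held its highest values. FARSB, GARS, EPRS, DARS, WARS and MARS were the other cytosolic genes called higher (0.62 to 1.54), and FARSA, YARS, NARS, SARS, VARS, QARS, HARS and KARS the others called lower (-1.30 to -0.47).

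Among mitochondrial genes, IARS2 rose most, from 39.7 and 44.3 FPKM without IP to 98.6 and 110.0 FPKM in the IP (1.29, SE 0.14, limma adjusted p 7.1e-05). Both isoleucine enzymes were thus among the largest increases of their class. NARS2 rose from 11.2 and 13.2 to 22.9 and 27.8 FPKM (0.9991, SE 0.14, adjusted p 0.000247). The decreases in this class were small. RARS2 fell from 16.4 and 16.8 to 10.04 and 12.6 FPKM (-0.52, SE 0.16, adjusted p 0.0178), and VARS2, the valine enzyme, from 3.68 and 4.07 to 2.44 and 2.76 FPKM (-0.44, SE 0.15, adjusted p 0.0277). WARS2, YARS2, LARS2, PARS2 and CARS2 were also called higher (0.37 to 0.97), and AARS2, HARS2 and SARS2 lower (-0.43 to -0.39).

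Opposite calls within an amino acid occurred for cysteine, asparagine, arginine and tyrosine in mitosis, where 32.8% of all genes were higher and 31.7% lower. CARS fell while CARS2 went from 36.8 and 34.3 to 43.7 and 49.02 FPKM (0.37, SE 0.10, limma adjusted p 0.0104). NARS fell from 45.4 and 47.5 to 19.7 and 22.5 FPKM (-1.10, SE 0.12, adjusted p 6.49e-05) while NARS2 rose. For arginine the direction was the other way, with RARS higher and RARS2 lower. YARS, the cytosolic tyrosine enzyme, fell from 38.9 and 37.7 to 17.1 and 17.2 FPKM (-1.11, SE 0.09, adjusted p 1.46e-05), and YARS2 rose from 9.04 and 10.4 to 17.8 and 19.7 FPKM (0.89, SE 0.11, adjusted p 0.000116).

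Several of the small mitochondrial changes lost their calls when single libraries were left out. Such a fit has 1 library in a group, so a lost call need not mean a smaller effect. HARS2 stayed at -0.39 without either interphase library without IP. RARS2 was at -0.54 without replicate 1 of mitosis without IP. The number called lower dropped from 15 to 9 without replicate 1 of the mitotic IP, and 21 of the 30 calls held whichever library was left out. RARS2 lost its call without replicate 1 of the mitotic IP (adjusted p 0.113) or either mitotic library without IP (0.0576 and 0.0668), as did VARS2 (0.118, 0.0566 and 0.123), and CARS2 lost its call without replicate 2 of the mitotic IP (0.0717) or of mitosis without IP (0.0686). The other calls lost in this way were those of AARS2, HARS2, KARS, LARS2, PARS2 and SARS2, with adjusted p-values from 0.0501 to 0.158. AARS2, KARS and SARS2 were lost without replicate 1 of the mitotic IP, LARS2, PARS2 and SARS2 without its replicate 2, AARS2, LARS2 and PARS2 without replicate 1 of mitosis without IP, and KARS, PARS2 and SARS2 without its replicate 2, while HARS2 was lost without any of 6 libraries. Removal of length and GC trends gave 17 higher and 13 lower genes, with AARS2, HARS2, SARS2 and VARS2 no longer called and the signs of AARS2, SARS2 and VARS2 changed. Quantile normalization and median centring also ended these 4 calls, and quantile normalization ended that of CARS2 (0.16, adjusted p 0.206), which leaves cysteine without opposite calls in mitosis.

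**Figure D2:**
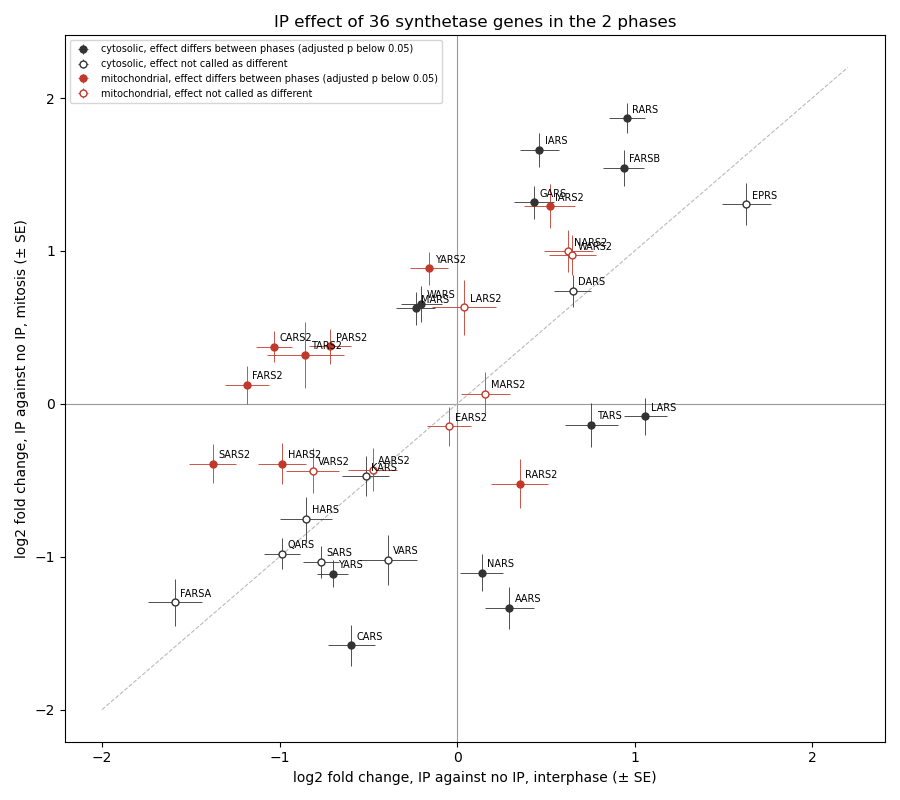
Log2 fold change of the IP against no IP in interphase (horizontal axis) and in mitosis (vertical axis) for the 36 genes, with bars of 1 SE; black is cytosolic, red is mitochondrial, filled points have a difference between phases at an adjusted p below 0.05, and the dashed line marks equal effects. Most filled mitochondrial points lie above the line and RARS2 lies below it. AARS, NARS, LARS and CARS lie far below it.

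The effect of the IP was then compared between the phases. The difference, mitosis minus interphase, was called higher for 14 of the 36 genes and lower for 7, against 47.1% of all genes called (27.2% higher and 19.9% lower). The cytosolic class was evenly split with 6 and 6, and a median difference of 0.02. In the mitochondrial class 8 genes were called higher and 1 lower, with a median difference of 0.59, where all genes had a median of 0.07. The class medians differed by -0.57, and by -0.63 and -0.67 in the pairs.

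CARS2 had the largest increase. Its IP libraries were at 20.6 and 19.6 FPKM in interphase, below the 43.8 and 40.6 FPKM without IP, and at 43.7 and 49.02 FPKM in mitosis, above the 36.8 and 34.3 FPKM without IP. The difference was 1.40 (SE 0.14, limma adjusted p 0.000148). CARS, its cytosolic counterpart, went the other way with a difference of -0.98 (SE 0.19, adjusted p 0.00294), from IP values of 8.11 and 6.64 FPKM in interphase to 2.07 and 2.04 FPKM in mitosis. FARS2 had a difference of 1.31 (SE 0.18, adjusted p 0.00052): it was at 1.998 and 2.14 FPKM in the interphase IP and at 4.25 and 4.44 FPKM in the mitotic IP, not called different from the 4.04 and 3.75 FPKM of mitosis without IP. RARS2 was the 1 mitochondrial gene called lower, with 21.03 and 28.7 FPKM in the interphase IP and 10.04 and 12.6 FPKM in the mitotic IP (-0.87, SE 0.23, adjusted p 0.0123), while RARS rose by 0.91 (SE 0.14, adjusted p 0.000997).

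IARS had the largest cytosolic increase, 1.20 (SE 0.16, limma adjusted p 0.000427), from 64.6 and 66.6 FPKM in the interphase IP to 246 and 281 FPKM in the mitotic IP. AARS had the largest decrease of all 36 genes, -1.63 (SE 0.19, adjusted p 0.000286). Its IP values were 23.6 and 18.9 FPKM in interphase, not called different from the 18.6 and 15.6 FPKM without IP, and 9.55 and 10.8 FPKM in mitosis. NARS had the same course, with 48.3 and 42.8 FPKM in the interphase IP, 19.7 and 22.5 FPKM in the mitotic IP and a difference of -1.24 (SE 0.17, adjusted p 0.000566). TARS and TARS2 differed in direction: -0.90 for TARS (SE 0.21, adjusted p 0.00751) and 1.18 for TARS2 (SE 0.31, adjusted p 0.0129). So did YARS (-0.41, SE 0.13, adjusted p 0.0255) and YARS2 (1.04, SE 0.15, adjusted p 0.00076). The amino acids with opposite calls between the compartments were thus arginine, cysteine, threonine and tyrosine. With length and GC trends removed the call of TARS2 was lost, which leaves threonine without opposite calls. Of all genes, 27.2% were called higher and 19.9% lower in this difference.

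Read across both phases, 6 cytosolic genes were called higher in the IP in each phase: DARS, EPRS, FARSB, GARS, IARS and RARS. Another 7 were lower in each, namely CARS, FARSA, HARS, KARS, QARS, SARS and YARS. The share of all genes with the same call in both phases was not computed. Taken phase by phase, 37.6% of all genes were higher and 37.0% lower in interphase, and 32.8% and 31.7% in mitosis. LARS and TARS were higher in interphase and not called in mitosis, where their log2 fold changes were -0.08 and -0.14. MARS and WARS were not called in interphase (-0.23 and -0.20) and higher in mitosis, and AARS, NARS and VARS were not called in interphase and lower in mitosis. Among mitochondrial genes, IARS2, NARS2 and WARS2 were higher in each phase, and AARS2, HARS2, SARS2 and VARS2 lower in each. CARS2 and PARS2 were lower in interphase and higher in mitosis, a pattern held by 333 of all genes (2.47%), while none of the 36 had the reverse pattern, held by 502 genes (3.73%). The mitotic call of CARS2 was lost after quantile normalization and the interphase call of PARS2 with length and GC trends removed. LARS2 and YARS2 were called higher and RARS2 lower in mitosis and not in interphase, FARS2 and TARS2 were called lower in interphase and not in mitosis, and EARS2 and MARS2 were called in neither. For LARS2 (0.59, limma adjusted p 0.0876) and VARS (-0.63, adjusted p 0.0529) the difference between phases was itself not called. The log2 fold changes of EARS2 were -0.05 and -0.15 and those of MARS2 0.16 and 0.07. HARS and HARS2, which share a start region and have the same interval in the file, were lower in the IP in both phases (-0.85 and -0.75 for HARS, -0.98 and -0.39 for HARS2).

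With length and GC trends removed, 11 genes had a higher and 11 a lower IP effect in mitosis, and HARS2, SARS2 and TARS2 lost their calls. CARS2 (1.11), FARS2 (1.16) and AARS (-1.88) kept theirs. The mitochondrial median was then 0.29 and the cytosolic one -0.32. The cytosolic median was also below 0 after quantile normalization (-0.11) and median centring (-0.0048). Quantile normalization ended the call of FARSB (0.43, adjusted p 0.0751). Leaving out single libraries ended the calls of FARSB, HARS2, IARS2 and YARS. For YARS 7 of the 8 libraries did so, while its difference stayed between -0.43 and -0.37. For HARS2 5 did so, and for FARSB and IARS2 replicate 2 of interphase without IP and replicate 1 of mitosis without IP.

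Without IP, 11 synthetase genes were higher in mitosis than in interphase and 9 lower, against 51.7% of all genes called (26.2% higher and 25.5% lower). Increases were mostly cytosolic: 9 of 20 cytosolic genes were called higher and 4 lower, with a median log2 fold change of 0.22. Of the 16 mitochondrial genes, 2 were higher and 5 lower, with a median of -0.05, and all genes had a median of -0.0023. The class medians differed by 0.27, and by 0.23 and 0.31 in the pairs.

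LARS rose most, from 17.4 and 15.0 FPKM in interphase to 43.3 and 41.97 FPKM in mitosis, a log2 fold change of 1.35 (SE 0.12, limma adjusted p 6.42e-05). Its mitochondrial counterpart LARS2 had the largest increase of its class, from 4.66 and 3.28 to 8.34 and 9.704 FPKM (1.02, SE 0.18, adjusted p 0.00174). Both leucine enzymes were thus higher in mitosis, with no overlap between groups. FARSB rose from 12.1 and 12.7 to 21.7 and 23.7 FPKM (0.83, SE 0.12, adjusted p 0.00059). FARS2 fell from 6.59 and 5.399 to 4.04 and 3.75 FPKM (-0.51, SE 0.13, adjusted p 0.00892), which made phenylalanine the 1 amino acid with opposite calls in this comparison. FARSA was not called (0.10). IARS, DARS, VARS, AARS, KARS, HARS and RARS were the other cytosolic genes called higher (0.28 to 0.79).

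The largest cytosolic decreases were those of QARS, from 33.6 and 37.7 to 22.8 and 20.99 FPKM (-0.68, SE 0.10, limma adjusted p 0.000754), and GARS, from 54.7 and 49.5 to 34.8 and 36.02 FPKM (-0.54, SE 0.11, adjusted p 0.0037). CARS and SARS were also lower. In the mitochondrial class SARS2 fell from 4.87 and 4.37 to 2.29 and 2.77 FPKM (-0.67, SE 0.13, adjusted p 0.00277) and MARS2 from 1.81 and 1.47 to 0.874 and 0.529 FPKM (-0.64, SE 0.14, adjusted p 0.00476). MARS2 was the only synthetase gene below 1 FPKM in both mitotic libraries without IP. PARS2 and YARS2 were lower as well. HARS2 was the second mitochondrial gene called higher, from 7.96 and 7.998 to 10.2 and 11.5 FPKM (0.40, SE 0.14, adjusted p 0.0357), beside HARS, its neighbour across the shared start region (0.58).

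**Figure D3:**
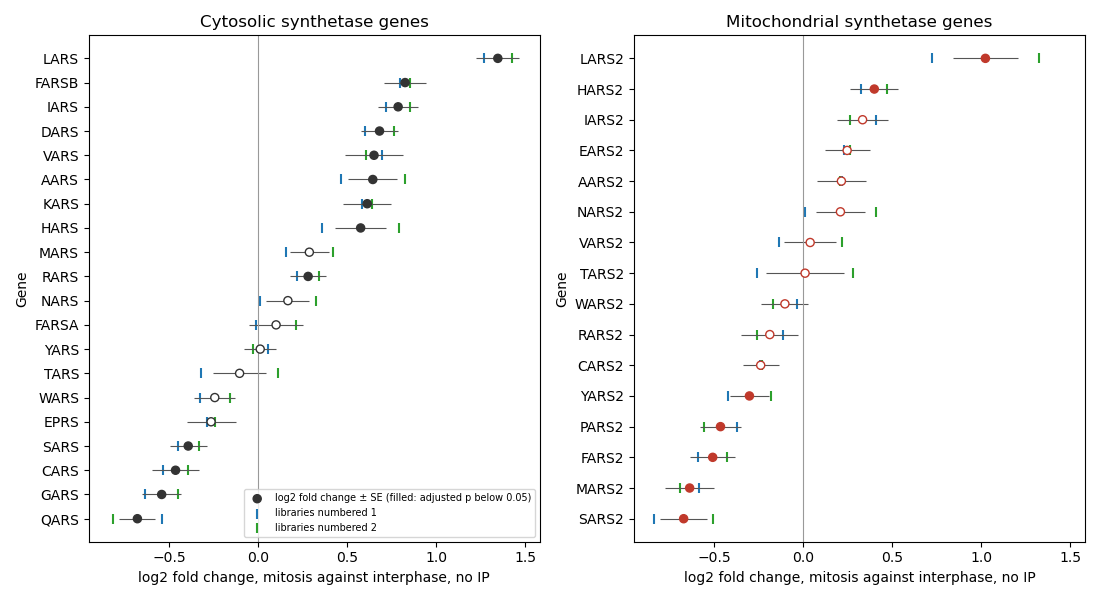
Log2 fold change of mitosis against interphase without IP for the cytosolic (left) and mitochondrial (right) synthetase genes, with bars of 1 SE; filled points have an adjusted p below 0.05 and the blue and green ticks are the values of the pairs of libraries numbered 1 and 2. LARS and LARS2 lie farthest to the right in their classes, and QARS, GARS, SARS2 and MARS2 farthest to the left.

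Some smaller changes in this comparison lost their calls when single libraries were left out. Such a fit has 1 library in a group, so a lost call need not mean a smaller effect. The number called lower dropped from 9 to 5 without replicate 1 of interphase without IP, and also without replicate 2 of mitosis without IP. FARS2 lost its call without either of these (adjusted p 0.0804 and 0.0541), HARS2 without any of the 4 libraries without IP (0.0618 to 0.173), and CARS, HARS, PARS2, RARS, SARS, VARS and YARS2 without at least 1 library (0.0505 to 0.238). With length and GC trends removed, 12 genes were higher and 6 lower, SARS, PARS2, SARS2 and YARS2 were no longer called, and the mitochondrial median was 0.015.

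Genes of the ATF4 amino acid response were followed in the same comparison, because ATF4 acts on many cytosolic synthetase genes. Of 27 listed genes (synthetases not included) 25 were measured, and 16 were lower in mitosis without IP and 1 was higher, with a median log2 fold change of -0.63; of all genes 25.5% were lower and 26.2% higher. The largest changes were those of DDIT4, an inhibitor of mTORC1 (-5.37), NUPR1, a stress-induced chromatin protein (-1.88), and SLC38A2, an amino acid transporter (-1.72). The 20 cytosolic synthetase genes had a median of 0.22 in that comparison. Of the 8 synthetase genes whose promoter window holds TGATGNAA, AARS (0.64) and IARS (0.79) were called higher, CARS (-0.46), GARS (-0.54) and YARS2 (-0.30) lower, and MARS (0.29), NARS (0.17) and TARS (-0.10) were not called. The 6 with TGATGCAA were thus spread between -0.46 and 0.79. In the interphase IP, 5 of the same 25 ATF4 genes were higher and 16 lower, against 37.6% and 37.0% of all genes. In the mitotic IP 8 were higher and 9 lower, near the 32.8% and 31.7% of all genes. The difference between phases was higher for 15 and lower for 1, against 27.2% and 19.9%.

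Between the IP libraries of the phases, more synthetase genes were called higher in mitosis than lower. The sum over the 36 genes was 869 and 869 FPKM in the interphase IP and 1251 and 1413 FPKM in the mitotic IP. As a share of the library's FPKM over all genes it was 0.249% and 0.27% in interphase and 0.272% and 0.372% in mitosis, so the lower mitotic library was level with the higher interphase one. For the classes, the sums were 722 and 706 FPKM (cytosolic) and 147 and 163 FPKM (mitochondrial) in interphase, and 1001 and 1132 FPKM and 250.5 and 281 FPKM in mitosis. Of the 36 genes, 19 were called higher and 10 lower in the mitotic IP than in the interphase IP, against 61.4% of all genes called (35.8% higher and 25.6% lower). The mitochondrial class had 10 higher and 2 lower (median log2 fold change 0.60), and the cytosolic class 9 and 8 (median 0.27). All genes had a median of 0.08. Median centring and the removal of length and GC trends lowered the median of all genes, with shifts of -0.11 and -0.10, and the class medians were then 0.16 and 0.03 (cytosolic) and 0.49 and 0.36 (mitochondrial). These values do not set the IP against its own samples without IP, so a gene that was itself higher in mitosis moves with them.

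IARS rose by 1.99 in this comparison (SE 0.11, limma adjusted p 2.38e-06), from 64.6 and 66.6 to 246 and 281 FPKM. FARSB rose from 24.4 and 24.8 to 61.3 and 75.7 FPKM (1.43, SE 0.12, adjusted p 1.43e-05). CARS fell from 8.11 and 6.64 to 2.07 and 2.04 FPKM (-1.45, SE 0.13, adjusted p 2.66e-05). NARS fell from 48.3 and 42.8 to 19.7 and 22.5 FPKM (-1.08, SE 0.12, adjusted p 8.09e-05), and neither gene's groups overlapped. LARS2 rose from 4.83 and 3.39 to 13.9 and 15.2 FPKM (1.61, SE 0.18, adjusted p 7.74e-05). TARS2 rose from 2.77 and 1.66 to 5.86 and 6.58 FPKM (1.19, SE 0.22, adjusted p 0.00137). RARS2 fell from 21.03 and 28.7 to 10.04 and 12.6 FPKM (-1.06, SE 0.16, adjusted p 0.000432), with RARS going the other way (1.19). MARS2 fell from 2.07 and 1.82 to 0.926 and 0.633 FPKM (-0.73, SE 0.14, adjusted p 0.00162).

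Opposite calls between cytosolic and mitochondrial genes occurred here for 7 amino acids, in a comparison with 35.8% of all genes higher and 25.6% lower. Beside arginine they were cysteine (CARS -1.45, CARS2 1.16), asparagine (NARS -1.08, NARS2 0.58), methionine (MARS 1.14, MARS2 -0.73), threonine (TARS -0.9998, TARS2 1.19), tyrosine (YARS -0.40, YARS2 0.74) and proline (EPRS -0.59, PARS2 0.63), with adjusted p-values between 1.99e-05 and 0.00588. The methionine and arginine pairs had the cytosolic gene higher, and the other 5 had the mitochondrial gene higher. The interphase values of MARS were 28.9 and 26.6 FPKM and the mitotic ones 59.04 and 66.2 FPKM. Of the 29 calls, those of GARS (adjusted p 0.0876 and 0.151) and VARS2 (0.0586 to 0.213) were lost without single libraries, GARS without replicate 1 of the interphase IP or replicate 2 of the mitotic IP, and VARS2 without replicate 2 of the interphase IP or either library of the mitotic IP. With length and GC trends removed the calls of GARS, VARS2 and PARS2 (0.24, adjusted p 0.113) were lost, which leaves proline without opposite calls.

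The 8 cytosolic synthetase genes of the multisynthetase complex (DARS, EPRS, IARS, KARS, LARS, MARS, QARS and RARS) were called higher in the IP more often than lower. In interphase 5 were called higher and 2 lower (median log2 fold change 0.56), where 37.6% of all genes were higher and 37.0% lower. In mitosis the counts were again 5 and 2 (median 0.68), where 32.8% of all genes were higher and 31.7% lower. With length and GC trends removed, the interphase calls of LARS (0.29), IARS (-0.12) and QARS (-0.17) were lost, and IARS changed sign. In mitosis no complex gene lost its call in that way. The other 12 cytosolic genes had 3 higher and 5 lower in interphase (median -0.30) and 3 higher and 8 lower in mitosis (median -1.03). KARS and QARS were the complex genes called lower in each phase. The 5 complex genes called higher in interphase had the lowest GC contents of the 8, from 41.2% (DARS) to 43.6% (IARS). KARS was at 46.6%, MARS at 53.8% and QARS at 55.2%. The other 12 cytosolic genes ran from 41.6% (FARSB) to 62.6% (VARS). The part of GC content in the contrast between complex and other genes was not tested. Without IP, 5 complex genes were higher in mitosis and 1 lower (median 0.45), against 4 and 3 of the other 12 (median 0.06). Of all genes, 26.2% were higher and 25.5% lower in that comparison. The 3 scaffold genes did not share the direction of the enzymes: in interphase AIMP1 was higher in the IP (0.46) and AIMP2 (-1.27) and EEF1E1 (-0.84) were lower, and in mitosis limma called none of the 3, with none at an unadjusted p below 0.05 either. Their differences between phases were -0.59 for AIMP1, 0.97 for AIMP2 and 0.68 for EEF1E1, all called. By catalytic fold, the 18 class I genes had medians of -0.10 in interphase and 0.22 in mitosis. The 17 class II genes, with FARSA and FARSB both counted, had medians of -0.52 and -0.39. EPRS, which holds both folds, was in neither class.

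GC content moved with the IP effect among the 36 genes, as it did among all genes. Across genes, Spearman's rho between the log2 fold change of the IP and the GC content of the longest annotated transcript was -0.81 in interphase and -0.52 in mitosis over the 36 genes, and -0.71 and -0.56 over 13173 genes. These values describe genes measured in the same 8 libraries, and genes are not independent replicates. Within the classes rho was -0.785 for cytosolic and -0.794 for mitochondrial genes in interphase, and -0.669 and -0.376 in mitosis. Transcript length was less related (0.18 and 0.00 over the 36 genes, 0.53 and 0.28 over all genes). The mitochondrial genes had a median GC content of 51.2% and the cytosolic ones 47.7%, with 47.6% over all genes. For the difference between phases the members' rho with GC was 0.14, against 0.42 over all genes, and with length -0.20 against -0.47. Within the classes the rho of that difference with GC was 0.44 (mitochondrial) and -0.14 (cytosolic). RNA fragments of different GC content can be recovered unequally in sequencing, and the part of GC content in the IP effect was not tested.

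**Figure D4:**
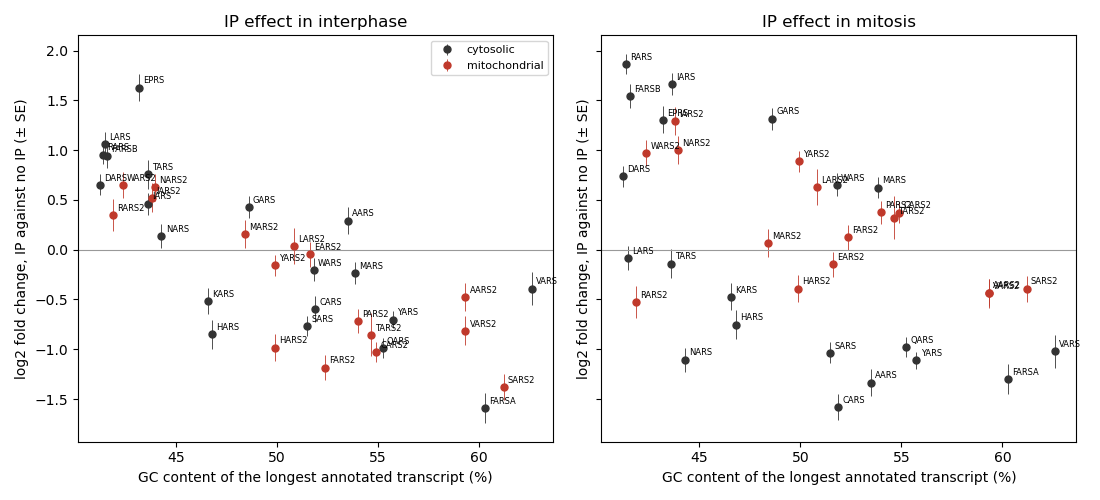
Log2 fold change of the IP against no IP (bars of 1 SE) in interphase (left) and mitosis (right) against the GC content of the longest annotated transcript in percent, for the 20 cytosolic (black) and 16 mitochondrial (red) synthetase genes. The GC-poor genes at the left lie above 0 in interphase and the GC-rich FARSA, SARS2 and VARS2 lie below it; the slope is less even in mitosis, where NARS, at 44.3% GC, lies near the bottom.

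Other genes of tRNA charging and modification of the charged tRNA, not counted among the 36, were QRSL1, GATB, GATC, MTFMT and TARSL2. QRSL1, GATB and GATC encode the amidotransferase that makes glutaminyl-tRNA in mitochondria, where no separate glutamine enzyme exists. In the IP, QRSL1 was higher in interphase (0.88) and mitosis (1.20), GATC was higher in both (0.89 and 1.04), and GATB was lower in interphase (-0.74) and not called in mitosis (-0.29). MTFMT, which formylates the initiator methionyl-tRNA of mitochondria (-0.09 and -0.11), and TARSL2, which encodes a second cytosolic threonine enzyme (0.25 and -0.29), were called in neither phase. For none of these 5 genes did limma call the difference between phases, and 2 of them, GATB (0.45) and TARSL2 (-0.54), had an unadjusted p below 0.05.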

How the data were processed

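The deposited table held FPKM of 13471 UCSC genes on hg38 for each of 8 libraries, per the file headers, and ratios that the authors formed from FPKM columns of the same replicate number, which were recomputed and not used further. TopHat and StringTie are named, with no version or role, in the submitters' processing notes; the annotation used and the handling of shared reads are not given in the sources used here. Extracts were cleared detergent lysates, and libraries were directional and depleted of ribosomal RNA, per the labels' protocols. Here log2(FPKM + 1) was fitted with limma 3.58.1 (R 4.3.3; lmFit, eBayes with trend), 1 coefficient per group, all libraries, no filter or replicate block (4 residual degrees of freedom) and Benjamini-Hochberg adjustment over all genes in each of 5 comparisons. The code was tested on simulated data. Of the 13471 genes, 13173 were matched to GENCODE 29 (GRCh38) for length and GC content of the longest transcript. The members and lists were chosen with earlier results of these data known. Given in full were the 2 called members with the largest change per direction, class and comparison, and pairs for 1 amino acid called in opposite directions; list genes are at most the 3 largest called. Alternatives were a pseudocount of 0.1, a mean of at least 1 FPKM, quantile normalization, median centring, removal of length and GC trends (splines with 5 degrees of freedom each), a replicate block, and leaving out each library.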

Additional observations from a re-analysis of the deposited data

Results flagged for a closer look

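The effect of the IP differed between mitosis and interphase, by the test of the difference itself, for 21 of the 36 genes. Higher in mitosis were the cytosolic genes IARS (1.20), RARS (0.91), GARS (0.88), MARS (0.86), WARS (0.85) and FARSB (0.61), given as the log2 fold change of the IP in mitosis minus that in interphase. The mitochondrial genes with a higher effect were CARS2 (1.40), FARS2 (1.31), TARS2 (1.18), PARS2 (1.09), YARS2 (1.04), SARS2 (0.99), IARS2 (0.77) and HARS2 (0.59). Lower in mitosis were AARS (-1.63), NARS (-1.24), LARS (-1.14), CARS (-0.98), TARS (-0.90), YARS (-0.41) and, of the mitochondrial genes, RARS2 (-0.87). Of all genes, 47.1% were called in this comparison.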

How the results depend on the processing

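The counts of members called higher stayed within 1.5 times their value under every alternative in all 5 comparisons. Removal of length and GC trends moved the count called lower from 15 to 6 for the interphase IP and from 7 to 11 for the difference between phases. It reversed the sign of SARS2 (0.13) and PARS2 (0.19) in interphase and of VARS2 (0.017) in mitosis, and the cause was not tested. The cytosolic minus mitochondrial difference of medians kept its sign throughout: in interphase it was 0.39 with a pseudocount of 0.1, 0.13 after quantile normalization and 0.073 with length and GC trends removed, in mitosis -0.57, -0.72 and -0.96, and for the difference between phases -0.66 with the pseudocount and -0.61 with the trends removed. Leaving out 1 library at a time, it ran from 0.27 to 0.34 (interphase IP), -0.69 to -0.42 (mitotic IP), -0.73 to -0.45 (difference), 0.20 to 0.33 (mitosis against interphase without IP) and -0.52 to -0.28 (in the IP). The count called lower then ran from 9 to 15 for the mitotic IP and from 5 to 10 in mitosis against interphase without IP. With the replicate number as a block, calls higher and lower numbered 12 and 15 (interphase IP), 15 and 15 (mitotic IP), 14 and 8 (difference), 12 and 9 (mitosis against interphase without IP) and 20 and 10 (in the IP), and no call was lost. The labels do not say whether same-numbered libraries were prepared together; the deviations of same-numbered libraries correlated across genes at 0.088 to 0.528, above 0.1 in 5 of 6 pairs of groups. Total depth is unknown, so no detection limit is given; the added 1 FPKM compresses the folds of AARS2, MARS2, PARS2, SARS2 and VARS2, which lie below 5 FPKM in all libraries.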

Other observations

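Other genes of the path from tRNA to ribosome were also measured. Their values under the alternatives, such as removal of length and GC trends, were not examined. All 4 mitochondrial elongation factors had a higher IP effect in mitosis than in interphase, against 27.2% of all genes, with a median difference of 1.05 on the log2 scale, the largest for TSFM (1.58), TUFM (1.37) and GFM2 (0.74). Of the 5 cytosolic elongation factors 3 were called higher and none lower, against 27.2% and 19.9% of all genes, with EEF1D at 1.74, EEF1G at 1.53 and EEF1B2 at 0.57. Of 16 genes of tRNA processing and export, 5 were called higher and 2 lower in that comparison, with TSEN34, a subunit of the tRNA splicing endonuclease, at 2.203, DTD1, a deacylase of mischarged tRNA, at 1.60 and SSB, the La protein, at -1.72. That is 43.8% of these genes called, near the 47.1% of all genes (27.2% higher and 19.9% lower). In the interphase IP the exportin XPOT was among the higher of these genes (1.69) and TSEN34 among the lower (-2.25).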
